A study of Drosophila melanogaster with 36 samples.

Results

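The libraries described here were the dnmnatOE ribosome pulldowns of Drosophila heads, compared 7 days after injury (7 dpa) and before injury. They were chosen by their labels for genotype, condition and pulldown, and number 3 and 3, or 6 of the 36 libraries of the series. The dnmnatOE animals carried orco-Gal4, 5xUAS-dnmnat and 5xUAS-GFP::RpL10Ab, each in 1 copy, in a w background, and both groups shared this genotype. The injury was the removal of both antennae and maxillary palps. The study also has wild type animals, with orco-Gal4 and 5xUAS-GFP::RpL10Ab only, and a background genotype, with orco-Gal4 only and no tagged ribosome. Each genotype was sampled before and after injury, as pulldown and as input, the RNA of the whole head homogenate, with 3 libraries a group. The labels give 300 animals for each genotype and condition and call the 3 libraries of a sample technical replicates, while the study's methods speak in general of biological replication. Which applies here is not settled by these sources, so the p-values and n = 3 below measure the spread between libraries, which may be technical. The sources used here do not say whether uninjured heads were of the same age as 7 dpa heads, so injury and ageing cannot be told apart.

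In translating ribosome affinity purification (TRAP), a tagged ribosomal protein, here GFP::RpL10Ab, is expressed in chosen cells, and its ribosomes and their RNA are collected on beads against the tag. The orco-Gal4 line drives expression in olfactory receptor neurons that use the co-receptor Orco. Their cell bodies sit in the antennae and maxillary palps and their axons end in the brain, so that after ablation only severed axons and synapses remain in the head. Severed axons normally undergo Wallerian degeneration, and excess dNmnat, an enzyme of NAD synthesis, attenuates it.

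The 6 libraries held 726888 to 2057294 counts assigned to genes, and 8796 to 9546 genes had at least 1 count. A floor of 3 counts was worth 1.34 to 3.54 CPM (counts scaled to a common library total), and levels below are CPM, not corrected for gene length. Libraries of 1 group correlated at r = 0.903 to 0.922 (log2 CPM, across genes, which are not independent replicates). The biological coefficient of variation was 0.46 over the 18 pulldowns, against 0.198 over the 18 inputs. Between 48.6% and 60.02% of the reads listed in the tables were ambiguous between genes and were not counted. The sources used here do not say whether strand was used in counting, so reads of genes whose spans overlap cannot be told apart, and such genes are named below with the gene they overlap (transposon insertions are not listed). Libraries of 1 group differed by more than sampling noise, with a chi-square of 6.55 to 26.7 per gene between pairs.

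Orco, the co-receptor that marks the neurons driven by orco-Gal4, had few counts. Orco (3R:5407183-5412406, Release 6 assembly) was counted at 15.6, 9.84 and 17.3 CPM in the uninjured and at 3.78, 1.18 and 2.44 CPM in the 7 dpa libraries. The groups did not overlap, but the change of -2.44 ± 1.38 (log2 ± SE) did not pass the test (adjusted p = 0.326 by the quasi-likelihood test of edgeR, adjusted as Benjamini and Hochberg). In the dnmnatOE input Orco went from 28.2 ± 3.78 to 0.675 ± 0.459 CPM (SD, n = 3), and it changed by -5.38 on the log2 scale.

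Of 60 odorant receptor genes, 28 had counts in any of the 6 libraries and 2 were frequent enough to test, of which 0 were called by edgeR or DESeq2 and 0 had an unadjusted p under 0.05. Their summed level was 34.9 to 55.0 CPM before and 24.4 to 34.2 CPM after injury, against means of 56.0 and 15.6 CPM in the input. Pulldown and input RNA were selected differently, so these levels stand side by side and were not tested against each other. In uninjured background pulldowns, which lack the tag, the sum was 11.7 to 31.01 CPM.

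Nmnat, the overexpressed gene, stood at 6.70, 17.9 and 18.8 CPM before and at 14.5, 3.54 and 7.94 CPM after injury (change -0.70 ± 0.89, adjusted p = 0.78, edgeR). These ranges overlapped. The uninjured level of 14.5 ± 6.74 CPM (SD, n = 3) was below the wild type mean of 28.5 ± 18.7 CPM, with overlapping spreads, so the counts did not show the transgene. RpL10Ab, the gene of the tagged protein, rose from 226, 241 and 247 to 527, 416 and 511 CPM (1.03 ± 0.14, adjusted p = 1.42e-07). Reads of the gene and of the GFP fusion cannot be told apart, and neither can reads of snoRNA:Psi18S-920 and CG32095, which overlap it.

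Between 7 dpa and uninjured dnmnatOE pulldowns, 855 genes changed out of 7213 tested. The rule for a call was a log2 fold change beyond 0.6 and an adjusted p no higher than 0.05, from the quasi-likelihood fit of edgeR to all 18 pulldowns. By this rule 531 genes (7.36%) were higher and 324 (4.49%) lower at 7 dpa. The libraries of the groups did not overlap for any of these 855, but non-overlap alone was common: 19.5% of all genes tested had all 7 dpa libraries higher, and 18.2% had all lower. The median log2 fold change over all genes was 0.0026. Called genes had a median change of 1.42 (higher) and -1.44 (lower), and 484 and 284 of them had a mean of at least 50 counts. In these bulk libraries fewer cells of a type and less RNA per cell cannot be told apart. A fit to the 6 dnmnatOE pulldowns alone called 857 and 676 genes, and fits without 1 of the 6 libraries called 401 to 433 and 263 to 285.

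**Figure D1:**
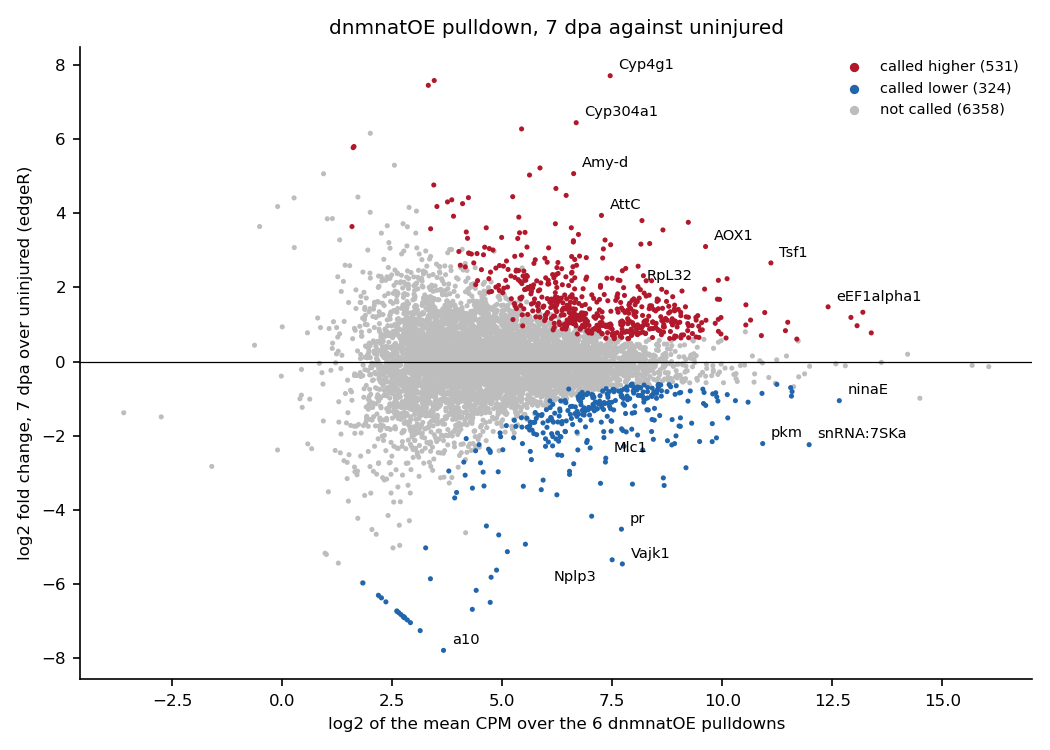
Log2 fold change, 7 dpa over uninjured (vertical axis, edgeR), against the log2 of the mean CPM over the 6 dnmnatOE pulldowns (horizontal axis), 1 point a gene tested. Red points are the 531 genes called higher and blue points the 324 called lower; eEF1alpha1 and snRNA:7SKa stand out among abundant RNAs, and genes with no 7 dpa count, such as a10, form the blue line at the lower left.

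The largest rises were picked among called genes with a mean of at least 50 counts and groups that did not overlap. These 12 included 5 P450 genes and 2 alpha-amylases. Cyp4g1 (X:467057-469335), the P450 of hydrocarbon synthesis in oenocytes, was at 0.447, 6.26 and 0 CPM before injury and at 345, 370 and 330 CPM after it. Every 7 dpa library was above every uninjured one, and the change was 7.70 ± 0.68 on the log2 scale (adjusted p = 1.57e-07, edgeR). Cyp4g1 overlaps CG32816. Its input rose by 8.26, from a mean of 17.02 to 5221 CPM, and the tagless background pulldown went from 6.39 to 66.7 CPM. In wild type pulldowns it rose from 144 ± 68.4 to 549.8 ± 92.2 CPM (SD, n = 3), so the dnmnatOE means of 2.24 and 348 CPM were below wild type in both conditions.

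Other P450 genes of this size were Cyp304a1 (6.44 ± 0.84; overlaps grsm), Cyp6d2 (6.27 ± 0.88; overlaps nsr), Cyp309a1 (5.03 ± 0.71) and Cyp309a2 (4.44 ± 0.92). P450 enzymes oxidise lipids, hormones and foreign compounds. The alpha-amylases Amy-d and Amy-p, near-identical copies whose reads the counting could split wrongly, rose by 5.07 ± 0.47 and 5.22 ± 0.77. Amy-d went from 3.13, 8.05 and 6.44 to 187, 210 and 177 CPM.

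Gbp2, a growth-blocking peptide, rose from 42.5, 42.9 and 31.2 to 552, 543 and 524 CPM (3.80 ± 0.22, adjusted p = 1.58e-19, edgeR; overlaps CG43103). The attacin AttC, an antibacterial peptide, rose from 18.3, 18.8 and 18.8 to 308, 264 and 288 CPM (3.94 ± 0.28; overlaps CG4744). Both genes had narrow spreads in each group. Idgf1, a chitinase-like secreted factor, rose by 3.89 ± 0.61 (overlaps CG5888), nAChRbeta3, an acetylcholine receptor subunit, by 4.48 ± 0.50 (overlaps Ets21C), and Mec2 by 4.67 ± 0.59.

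Among called genes with a mean of at least 50 counts and groups that did not overlap, Vajk1 had the largest fall. Vajk1 (2L:13920707-13923553), of a family of cuticle proteins, fell from 477, 360 and 409 CPM to 5.03, 7.08 and 15.3 CPM (-5.45 ± 0.81, adjusted p = 0.000159, edgeR; overlaps Ance-3). Nplp3 (3L:16318024-16318690), which encodes a neuropeptide-like precursor, fell from 326, 396 and 336 to 10.7, 11.8 and 4.27 CPM (-5.34 ± 0.47, adjusted p = 4.4e-13). The groups were far apart for both genes.

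The gene purple (pr, 2L:20073719-20075458), whose enzyme makes the pteridine precursor of red eye pigment, fell from 418, 396 and 389 to 27.1, 18.9 and 6.72 CPM (-4.52 ± 0.44, adjusted p = 1.01e-11, edgeR; overlaps bwa). The uninjured dnmnatOE level of pr and Vajk1 was above that of the other genotypes. Before injury pr averaged 401 ± 14.9 CPM in dnmnatOE, 57.4 ± 26.1 in wild type and 11.01 ± 4.71 in background pulldowns (SD, n = 3 each). At 7 dpa the 3 pulldown means were 17.6, 13.3 and 20.7 CPM. Vajk1 likewise averaged 416 ± 58.7, 122 ± 46.0 and 7.35 ± 10.8 CPM before injury in dnmnatOE, wild type and background.

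The other large falls were Cyp4d21 (-4.92 ± 0.76), a P450 known for higher expression in males, sens-2 (-4.17 ± 0.53), a zinc finger gene, and retinin (-3.59 ± 0.40), a protein of the corneal surface. Cpr49Ag (-4.67 ± 1.15) encodes a chitin-binding cuticle protein, and Dhc93AB (-3.36 ± 0.81) an axonemal dynein heavy chain. Cyp313a1 (-3.45 ± 0.53; overlaps Pde6), CG6870 (-3.30 ± 0.37; overlaps Sytalpha), CG11997 (-5.12 ± 1.16; overlaps pum) and the rRNA pseudogene 28SrRNA-Psi:CR40741 (-3.34 ± 0.28) complete the 12 with the largest falls. Reads of a pseudogene may come from rRNA copies.

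**Figure D2:**
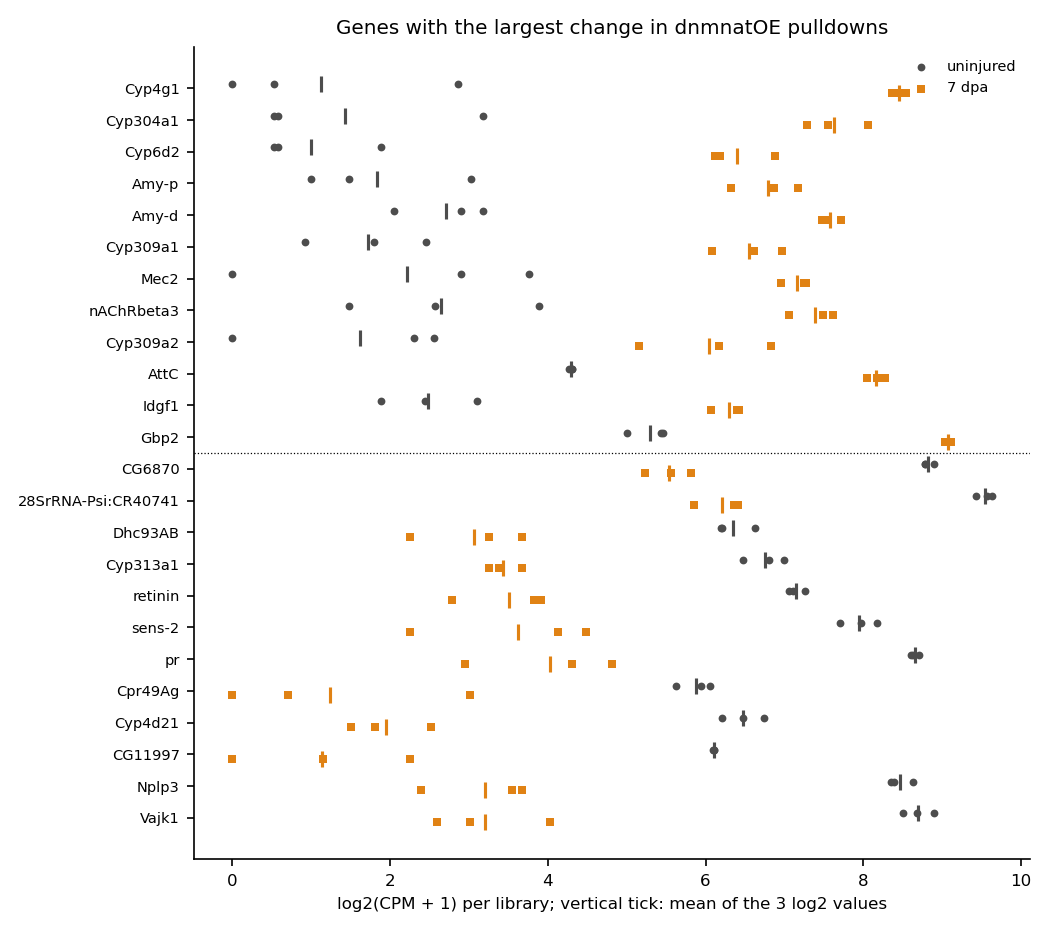
Level of the 12 genes with the largest rise (above the dotted line) and the 12 with the largest fall (below it) in each dnmnatOE pulldown, as log2(CPM + 1), with circles for uninjured and squares for 7 dpa libraries and a tick at each group's mean. Genes were picked to have groups that do not overlap. Cyp4g1 spans 0 to 6.26 CPM before and 330 to 370 CPM after injury.

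Genes of protein synthesis rose together in count. Of 80 cytosolic ribosomal protein genes tested, 70 were called higher and 0 lower, against 7.36% and 4.49% of all genes, and all 80 had a fold change above 0, with a median of 1.10. Their summed level was 18820 to 19640 CPM before and 39170 to 42000 CPM after injury. RpL32 (3R:30045229-30046161), of the large subunit, rose from 86.7, 113 and 123 to 508, 418 and 382 CPM (2.02 ± 0.18, adjusted p = 1.28e-12, edgeR). RpL26 (1.62 ± 0.15), RpL8 (1.19 ± 0.11), and RpL17 (1.41 ± 0.13), RpL7A (1.14 ± 0.11) and RpS7 (1.42 ± 0.14), which hold snoRNA genes, had the next smallest p-values. Without 1 of the 6 libraries, 67 to 71 genes were called higher.

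The uninjured dnmnatOE level of these genes was the lowest of the 6 pulldown groups. Wild type pulldowns averaged 32400 CPM before and 45100 CPM after injury, and background pulldowns, without the tag, 41130 and 53640 CPM. After injury the dnmnatOE mean of 40610 CPM was still below both. The rise itself was larger in dnmnatOE for 22 of the 80 genes than in wild type and for 37 than in background, and larger than in the input for 42. Over all genes, 3.05% differed from wild type and 4.6% from background, in either direction. The change lay above that in the input for 728 of 9816 genes.

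Elongation factors moved as well. eEF1alpha1, which brings aminoacyl-tRNA to the ribosome, rose from 3031, 2941 and 2635 to 7715, 7913 and 8293 CPM (1.47 ± 0.08, adjusted p = 3.15e-21, edgeR; overlaps snoRNA:Me28S-A1322). Its paralogue eEF1alpha2 fell from 924, 748 and 751 to 367, 344 and 445 CPM (-1.07 ± 0.14). The groups did not overlap in either gene, as in every called gene. In the list of 42 translation factors, 10 were higher and 3 lower (median 0.51), beside 7.36% and 4.49% of all genes. Without 1 of the 6 libraries 7 to 9 were called higher. Without uninjured replicate 1 the calls lower were 1, and eIF4E1 and eIF4H1 were lost.

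Among these, eEF2, the translocation factor, rose by 0.83 ± 0.08 (overlaps sncRNA:254) and eEF1gamma by 1.03 ± 0.12. eEF1beta (1.19 ± 0.21), eIF2A (0.79 ± 0.15; overlaps CG32448) and eIF3f1 (1.22 ± 0.28) rose too. The other genes that fell were the cap-binding protein eIF4E1 (-1.22 ± 0.32) and eIF4H1 (-1.06 ± 0.31), the second of which also lost its call without 7 dpa replicate 1 or 3. In the input eEF1alpha2 fell by 2.77 and eEF1alpha1 changed by 0.15. Of 27 mitochondrial ribosomal protein genes, 0 were called by edgeR or by DESeq2, and 1 had an unadjusted p under 0.05 (median -0.09).

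Small nucleolar RNAs (snoRNAs and scaRNAs) guide modification of rRNA and snRNA. Of 104 tested 44 rose and 0 fell (median 0.91), against 7.36% and 4.49% of all genes. Without 1 of the 6 libraries 32 to 42 were called higher. The sum of the list went from 20340-24560 to 35840-44990 CPM. snoRNA:Psi28S-3342 rose from 1030, 1154 and 1246 to 2881, 2599 and 3086 CPM (1.32 ± 0.10, adjusted p = 1.51e-14, edgeR). The 3 libraries of each group lay close together. snoRNA:Psi28S-3436b (1.19 ± 0.12) and snoRNA:Psi28S-3436a (1.22 ± 0.15), both within RpL17, snoRNA:Psi18S-531 (1.19 ± 0.12; within RpL22 and lncRNA:CR42491), snoRNA:Psi28S-2566 (0.93 ± 0.12; overlaps CG3902) and snoRNA:Psi18S-920 (1.30 ± 0.17; within RpL10Ab) rose similarly.

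In wild type pulldowns the snoRNA sum was 72860 to 82640 CPM before and 70000 to 90560 CPM after injury, and in background pulldowns 57740 to 76280 and 51040 to 57410 CPM. The dnmnatOE libraries were thus below every library of the other genotypes in both conditions. The change of snoRNA:Psi28S-3342 exceeded that in wild type by 1.49 and that in background by 2.12 on the log2 scale. RNaseMRP:RNA, the RNA of an rRNA-processing enzyme, rose by 1.19 ± 0.07, from 4734 ± 120 to 10800 ± 918 CPM (SD, n = 3; overlaps CG10365), and by 1.42 in wild type.

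Against these, the abundant nuclear RNA snRNA:7SKa (3R:7474553-7474996), which holds the transcription elongation factor P-TEFb inactive, fell from 6357, 6831 and 6732 to 1255, 1434 and 1529 CPM (-2.24 ± 0.08, adjusted p = 7.58e-27, edgeR). It was the gene with the smallest p in the comparison. Here the 7 dpa dnmnatOE libraries stood apart: the other pulldown groups averaged 5665 to 8461 CPM. snRNA:U12 (-1.11 ± 0.25; overlaps Baldspot) and snRNA:U11 (-0.74 ± 0.26; overlaps Fie), of the minor spliceosome, also fell, though U11 lost its call without uninjured replicate 2 or 3 or 7 dpa replicate 1 or 2.

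As a share of all counts, snRNA genes went from 0.715-0.894% to 0.164-0.191%, and snoRNA and scaRNA genes from 2.21-3.05% to 4.18-5.03%. Nearly all of the snRNA share was snRNA:7SKa, which went from 0.692-0.858% to 0.149-0.171%, and the other snRNA genes together went from 0.0231-0.0368% to 0.0147-0.0195%. In the exact permutation test the snRNA class and the class of snoRNAs and scaRNAs each gave p = 0.1 (two-sided), the smallest possible with 3 against 3. Adjusted over the 6 RNA classes compared, each was at 0.2. The class of long non-coding and antisense RNAs gave the same values, and the parts of the snRNA class were not tested apart. Pulldown RNA was sequenced without poly-A selection and inputs with it, so these classes can be compared between pulldowns only.

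**Figure D3:**
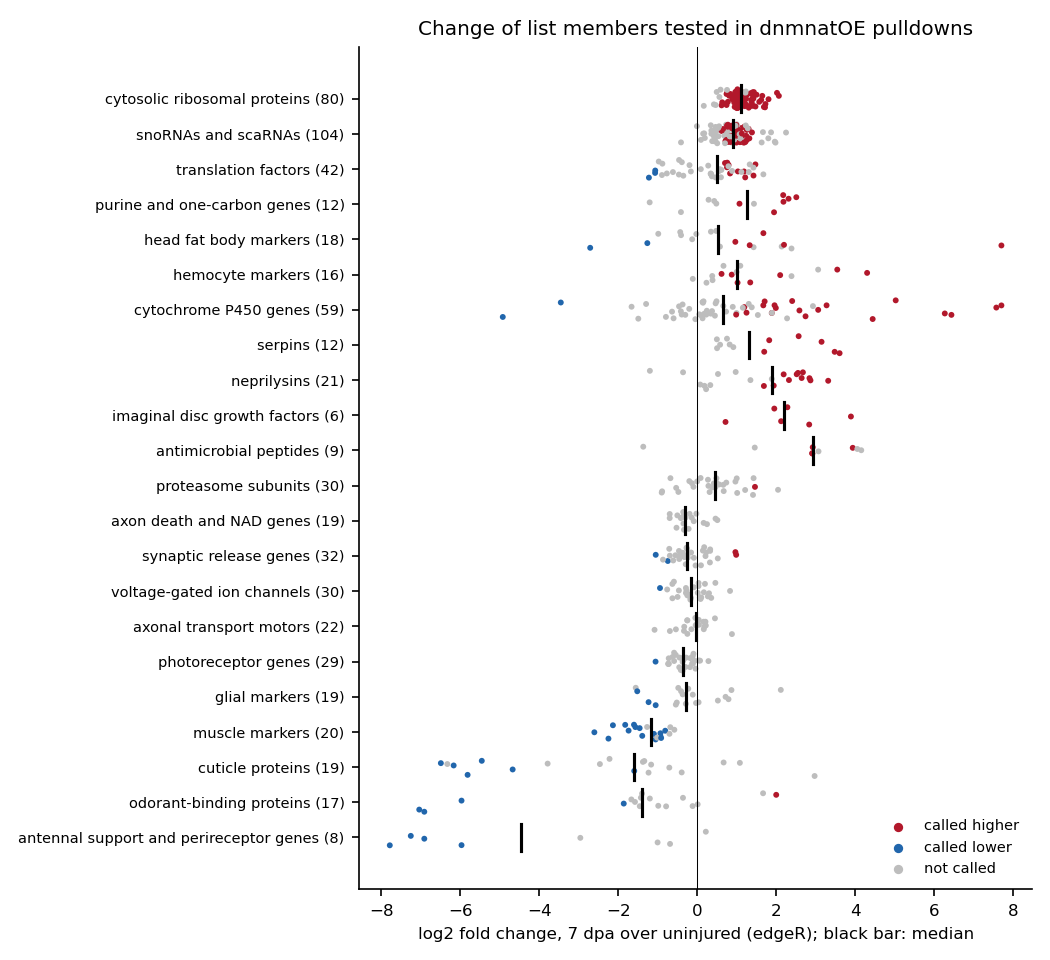
Log2 fold change, 7 dpa over uninjured, of each tested member of 22 gene lists in dnmnatOE pulldowns (1 point a gene, number tested in parentheses, black bar at the median, red and blue for called genes). All 80 ribosomal protein genes lie above 0 and all 20 muscle genes below it, while axon death genes and transport motors hold no called gene.

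Markers of fat body, the insect counterpart of liver and adipose tissue, and of blood cells rose in part. Of 18 head fat body markers 5 were higher and 2 lower (median 0.53), beside 7.36% and 4.49% of all genes. The yolk protein Yp3 rose from 5404, 5264 and 5335 to 13860, 12740 and 13620 CPM (1.33 ± 0.07, adjusted p = 3.15e-21, edgeR). Yp2 rose by 0.97 ± 0.07, while Yp1, the third yolk protein gene, was at 12630 ± 260 and 12450 ± 697 CPM (-0.02 ± 0.07, adjusted p = 0.933). Apoltp, the lipid transfer particle apolipoprotein, rose by 1.68 ± 0.13 and the pattern recognition protein GNBP3 by 2.20 ± 0.41. takeout (to), a hormone-binding protein, fell from 281 ± 30.7 to 44.0 ± 16.1 CPM (-2.71 ± 0.29), and the lipid droplet protein Lsd-2 by -1.26 ± 0.21.

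Yolk proteins are made by females. The male-specific RNAs lncRNA:roX1 and lncRNA:roX2 of dosage compensation fell, from 960 ± 63.3 to 305 ± 51.7 CPM (-1.66 ± 0.15; overlaps ec) and from 213 ± 19.6 to 42.9 ± 12.8 CPM (-2.33 ± 0.26). In the 8 tested sex-linked markers 2 rose and 2 fell, beside 7.36% and 4.49% of all genes. The part of the sex ratio of the heads in these results was not tested.

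Tsf1 (X:18387084-18390344), transferrin of the hemolymph, rose from 602, 698 and 510 to 3939, 3798 and 3669 CPM (2.66 ± 0.11, adjusted p = 1.74e-24, edgeR). The uninjured libraries varied more than the 7 dpa ones, relative to the mean, and the groups were far apart. In wild type pulldowns Tsf1 went from 642 to 2632 CPM, in background pulldowns from 939 to 1603 CPM, and in the dnmnatOE input from 979 to 24760 CPM. The clotting protein gene fon rose from 75.1, 78.7 and 94.1 to 1062, 1148 and 1142 CPM (3.75 ± 0.21). AOX1, an aldehyde oxidase, rose from 156, 175 and 163 to 1396, 1393 and 1442 CPM (3.10 ± 0.16), and Tps1, which makes the blood sugar trehalose, by 2.23 ± 0.12 (overlaps CG3652).

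Of 16 hemocyte markers, 7 rose and 0 fell (median 1.01), beside 7.36% and 4.49% of all genes. Their sum went from 744.9-852.2 to 2171-2224 CPM. NimB2, a secreted nimrod protein, rose from 52.3, 48.3 and 87.6 to 717, 758 and 750 CPM (3.55 ± 0.26; overlaps NimB1). The collagen IV genes Col4a1 (1.34 ± 0.14) and vkg (0.62 ± 0.21), the scavenger receptors Sr-CI (4.30 ± 0.90) and crq (1.02 ± 0.32; overlaps ex) and the prophenoloxidase PPO2 (2.10 ± 0.52) were also higher. Without 1 of the 6 libraries 4 or 5 markers were called (4 without any but 7 dpa replicate 2). Here crq lost its call without any of them and vkg without any but 7 dpa replicate 2. A called marker not named here was lost each time as well. In the input, 15 of the 16 were higher, against 26.5% of all genes tested there. Their summed mean in the input was 569 CPM before and 12130 CPM after injury.

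Over all genes 7.36% were higher and 4.49% lower. Of 9 antimicrobial peptide genes tested, 4 were higher and 0 lower (median 2.93). Their sum was 46.5 to 56.3 CPM before and 443.6 to 471.4 CPM after injury. Beside AttC, DptB (2.91 ± 0.76; overlaps CG43109), DptA (2.93 ± 0.92) and Mtk (2.92 ± 0.93; overlaps Stacl) rose, from means of 4.25-4.93 to 33.5-38.1 CPM. Without uninjured replicate 1 the calls were 3 and without any other library 2, with Mtk and DptA among the losses. Of 8 peptidoglycan recognition genes 3 rose, PGRP-SA (3.32 ± 0.96), PGRP-SD (2.66 ± 0.82; overlaps CG32373 and CG7492) and PGRP-SB1 (1.92 ± 0.64), which sense or cut bacterial cell wall. None was called without uninjured replicate 2 or 7 dpa replicate 2, 1 without 7 dpa replicate 3 and 2 without uninjured replicate 3. TotA, a humoral stress peptide, rose by 3.01 ± 0.85, a call lost without uninjured replicate 2 or 3 or 7 dpa replicate 2. In background pulldowns the summed antimicrobial peptide level was already 203 to 222 CPM before injury, and 313 to 460 CPM after it.

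Of 59 P450 genes tested, 19 were higher and 2 lower (median 0.66), beside 7.36% and 4.49% of all genes. Beside those above, Cyp9b2 rose from 24.6, 42.0 and 25.8 to 278, 278 and 322 CPM (3.28 ± 0.30, adjusted p = 1.28e-12, edgeR). Cyp6g1, known for insecticide resistance, rose by 1.99 ± 0.22 (overlaps Cyp6g2) and Cyp12c1 by 3.06 ± 0.43. Of 19 glutathione S-transferases 0 were called by edgeR or by DESeq2, and 2 had an unadjusted p under 0.05 (median -0.36). Without 1 library 14 to 16 P450 genes were called higher, and without 7 dpa replicate 3 there was 1 call lower among the transferases.

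Lists of secreted proteins that were added after values had been seen are given as a description. In the pulldown 7.36% of all genes were higher and 4.49% lower. All 6 imaginal disc growth factors, 6 of 12 serpins (inhibitors of serine proteases) and 11 of 21 neprilysin-like peptidases were called higher and 0 lower. In the input, all 6, all 12 and 18 of 21 were higher, against 26.5% of all genes tested there.

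Muscle genes fell together in count. Of 20 muscle markers tested, 15 were lower and 0 higher, against 4.49% and 7.36% of all genes. All 20 had a fold change below 0, and the median was -1.18. Their sum went from 13420-14100 CPM to 5950-6190 CPM. Mlc1, a myosin light chain, fell from 320, 254 and 269 to 35.2, 47.2 and 56.2 CPM (-2.60 ± 0.25, adjusted p = 1.31e-11, edgeR). Mlc2 (-2.25 ± 0.19), the thick filament protein Mf (-2.13 ± 0.17; overlaps Gyc88E), the Z-disc proteins Zasp66 (-1.74 ± 0.15; overlaps Cdc6) and Zasp52 (-1.56 ± 0.14; overlaps tun) and the titin-like sls (-0.93 ± 0.10; overlaps asRNA:CR42860) fell too.

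Here again the uninjured dnmnatOE pulldowns held the extreme value. The muscle sum was 6645 to 7373 CPM before and 5147 to 5662 CPM after injury in wild type, and 8359 to 8566 and 7023 to 7187 CPM in background pulldowns. In the dnmnatOE input the mean sum went from 4887 to 1372 CPM, and all 20 genes were lower, against 24.2% of all genes tested there. The fall of 7 of the 20 genes exceeded that in wild type, and that of 10 differed from background. Over all genes 3.05% and 4.6% differed, in either direction.

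Rhodopsin ninaE (3R:19886255-19888206) fell from 8687, 8684 and 8820 to 4103, 4041 and 4474 CPM (-1.05 ± 0.07, adjusted p = 9.53e-17, edgeR). It was the only 1 of 29 photoreceptor genes called by edgeR (median -0.37), though only 3 had a fold change above 0. DESeq2 called 3 of them lower. The photoreceptor sum went from 20470-21020 to 13670-14120 CPM. In the input, 20 of the 29 genes were lower, against 24.2% of all genes tested there. Of 19 glial markers, the glutamine synthetase Gs2 (-1.52 ± 0.17), the sodium pump subunit nrv2 (-1.23 ± 0.26) and the gap junction protein Inx2 (-1.05 ± 0.37, adjusted p = 0.0492) were lower and 0 higher. In the pulldown 4.49% of all genes were lower and 7.36% higher. Inx2 lost its call without any 1 of the 6 libraries. Without uninjured replicate 2 or 7 dpa replicate 3 there were 3 photoreceptor genes lower, and 2 without uninjured replicate 3 or 7 dpa replicate 1.

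**Figure D4:**
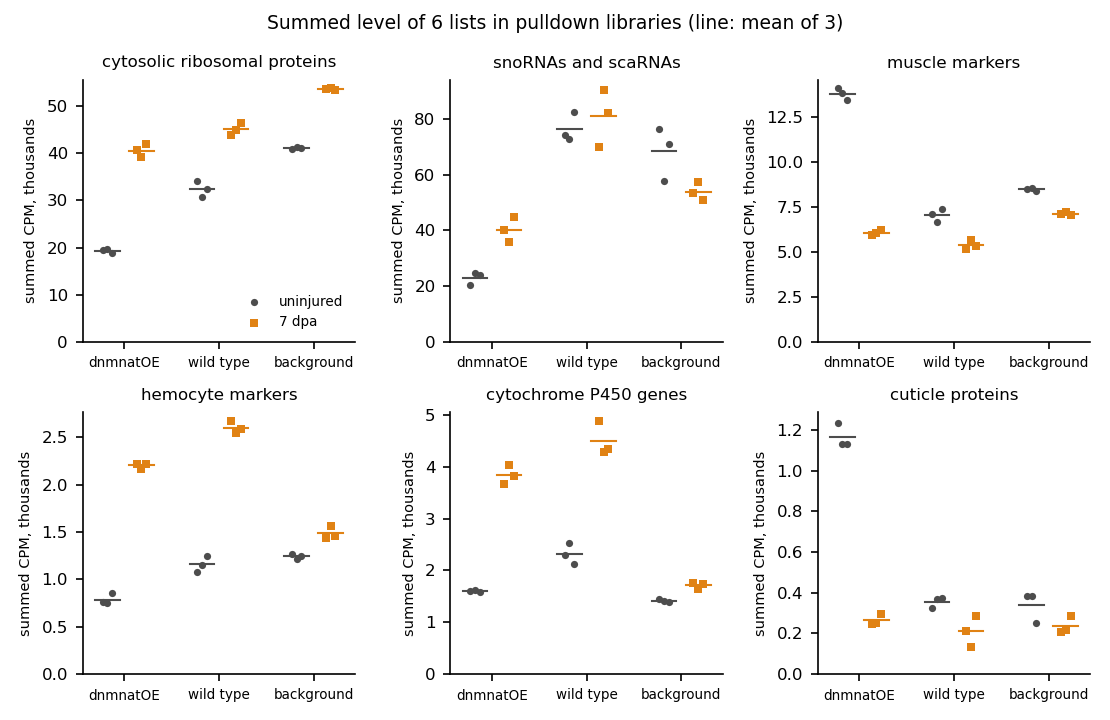
Summed CPM (in kilo-CPM, vertical axes from 0) of 6 gene lists in each pulldown of the 3 genotypes, with circles for uninjured and squares for 7 dpa libraries and a line at the mean of 3. In dnmnatOE, ribosomal protein genes rise from a low uninjured level, and muscle and cuticle genes fall from an uninjured level above those of wild type and background.

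Several genes of antennal support cells had no count at 7 dpa. a10, a small secreted protein of the antenna, was at 28.6, 22.4 and 25.2 CPM before injury and at 0 in all 3 libraries after it, which is at least 10.5-fold lower against a floor of 3 counts per library (adjusted p = 0.000146, edgeR). Jhedup (at least 7.27-fold lower), a carboxylesterase, and the odorant-binding proteins Obp19a (at least 6.24-fold), Obp83a (at least 5.71-fold) and Obp28a (at least 2.95-fold) also had no count at 7 dpa. Antennae had been removed in these animals. DESeq2 did not call Jhedup, Obp19a, Obp83a or Obp28a. Of 8 antennal support genes tested 4 were lower, beside 4.49% of all genes. The median change was -2.04 with the genes at 0 set to their bound. Without uninjured replicate 2 or 3 there were 3 calls, and without any other library 2.

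Of 17 odorant-binding proteins 4 were lower and 1 higher (median -1.40), beside 4.49% and 7.36% of all genes. Obp19d fell from 345, 376 and 287 to 73.0, 96.8 and 108 CPM (-1.86 ± 0.22), so that it stayed well above the floor. Obp99c, another of this family, rose from 41.1, 60.8 and 78.7 to 227, 220 and 275 CPM (2.00 ± 0.36; overlaps Gycalpha99B). The 4 calls lower were 1 without 7 dpa replicate 1 or 3 and 2 without uninjured replicate 1.

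Genes that act in neurons in general are given beside the 7.36% higher and 4.49% lower over all genes. Of 32 synaptic release genes 2 were higher and 2 lower (median -0.25), shares near that background: complexin (cpx, -0.74 ± 0.13; overlaps Nepl11 and mir-929) and the vesicular monoamine transporter Vmat (-1.05 ± 0.22; overlaps CG13330, CG13331 and CG13332) fell, and the endocytic tweek (0.99 ± 0.17; overlaps ApepP, CG12288, CG31805, CG42556 and lncRNA:CR44392) and Eps-15 (0.97 ± 0.25) rose. Of 30 voltage-gated ion channel genes only the pacemaker channel Ih was called (-0.94 ± 0.16). Of 22 axonal transport motors (median -0.02) and 19 axon death and NAD genes (median -0.30), 0 were called by edgeR or by DESeq2, and 3 of each had an unadjusted p under 0.05.

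In the input the same lists were mostly lower: 26 of 32 synaptic release genes and 29 of 30 channels, against 24.2% of all genes tested there. The change in the pulldown lay above that in the input for 17 and 22 of them, and below it for 2 and 0. Over all 9816 genes of that test it lay above for 728 and below for 1513. The selection of RNA differed between the kinds of library, so the test was of their changes and not of their levels. This cancels the difference in selection only if it acted alike before and after injury, which was not tested.

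Among ubiquitin ligases, HERC2 (X:20394395-20412247), a HECT-type ligase, rose from 490, 444 and 418 to 1523, 1410 and 1407 CPM (1.68 ± 0.14, adjusted p = 9.85e-14, edgeR). Every 7 dpa library was above every uninjured one, as for every gene called higher. In wild type pulldowns HERC2 went from 325 ± 22.4 to 536 ± 104.2 CPM, in background pulldowns from 597 ± 26.4 to 520 ± 84.0 CPM, and in the dnmnatOE input from 77.7 ± 5.99 to 87.4 ± 7.94 CPM (SD, n = 3). The rise in dnmnatOE exceeded that in wild type by 0.96 (adjusted p = 0.00154), that in background by 1.88 (4.02e-10) and that in the input by 1.47 (2.22e-09).

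Over all genes 7.36% were higher and 4.49% lower. Of 21 ligases of the HECT and RBR type 4 were higher and 1, LUBEL (-1.27 ± 0.23), lower. Ufd4 (0.68 ± 0.16), HUWE1 (0.64 ± 0.16) and CG3356 (1.52 ± 0.40; overlaps CG11406) were the others that rose, of which HUWE1 lost its call without uninjured replicate 2 or 7 dpa replicate 3, Ufd4 without uninjured replicate 3 and CG3356 without 7 dpa replicate 1. Of the 16 genes the authors grouped under protein ubiquitination 5 were higher (median 1.27), mib1 (1.41 ± 0.34; overlaps mRpS31) and pic (1.71 ± 0.54) among them. The 5 calls were 3 without uninjured replicate 2 or 7 dpa replicate 1 or 3, and pic lost its call without any 1 library. That group had been chosen in part on the same 7 dpa libraries, so it is not independent evidence of its direction.

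The study's methods name RNA interference lines for 12 genes, all of which could be tested here, and HUWE1 and pic were higher. They are given with 7 others, 6 of them testable, of ubiquitination, calcium transport and NAD synthesis, of which HERC2 was higher. Over all genes tested, 7.36% were higher. Only HERC2 was called without uninjured replicate 2 or 7 dpa replicate 3, and 2 genes were called without any other library. Bruce, an inhibitor of apoptosis with ligase activity, changed by 0.55 ± 0.14 (adjusted p = 0.00472), below the fold threshold. highwire (hiw), a ligase that promotes axon death, was at 309, 290 and 334 CPM before and at 427, 419 and 443 CPM after injury (0.46 ± 0.17, adjusted p = 0.0652; overlaps CG5541 and be). The groups did not overlap, which held for a higher 7 dpa level in 19.5% of all genes, and the change did not pass.

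The calcium channel and exchanger genes of this set did not pass the test: Ca-alpha1T 0.30 ± 0.20 (adjusted p = 0.433), Ca-alpha1D 0.17 ± 0.25 (0.824; overlaps asRNA:CR43806), cac 0.09 ± 0.30 (0.942), stj 0.20 ± 0.32 (0.841), RyR -0.19 ± 0.23 (0.761), Calx -0.45 ± 0.26 (0.354; overlaps Alp5 and CG43446) and Nckx30C -0.28 ± 0.19 (0.446; overlaps CG13116 and CG13117). The authors grouped 9 genes under calcium transport, chosen in part on the same 7 dpa libraries, so the group is not independent evidence of its direction. Its 8 tested genes all fell in the input (median -1.71), where 24.2% of all genes were lower. The summed pulldown level of the 9 was 2032 to 2121 CPM before and 2059 to 2143 CPM after injury. The rest were raptor 0.55 ± 0.32 (0.354; overlaps Mipp2 and asRNA:CR44959), S6k 0.29 ± 0.33 (0.745; overlaps CG42272), CG10916 1.63 ± 1.17 (0.498; overlaps CG5726), Traf4 -0.50 ± 1.06 (0.888; overlaps lncRNA:CR45363), CG6923 0.07 ± 0.43 (0.967) and Nmnat. Without 7 dpa replicate 1, cac was at -0.0762 and CG6923 at -0.0815, and CG6923 was also below 0 without uninjured replicate 2 or 7 dpa replicate 2.

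Of 31 injury-response and engulfment genes 4 were higher and 1 lower (median -0.17), beside 7.36% and 4.49% of all genes. kay, the Drosophila Fos, fell from 1425, 1290 and 1286 to 400, 373 and 480 CPM (-1.67 ± 0.13, adjusted p = 2.87e-14, edgeR; overlaps fig and lncRNA:CR46110), while its input changed by 0.50, below the fold threshold, from 148 ± 10.3 to 208 ± 13.98 CPM (SD, n = 3). In background pulldowns kay rose from 459 ± 35.9 to 902 ± 63.2 CPM. Pvr (1.29 ± 0.26), a receptor tyrosine kinase, the kinase msn (0.72 ± 0.20), the JAK/STAT target Socs36E (1.05 ± 0.33; overlaps lncRNA:CR44478) and the insulin receptor InR (0.76 ± 0.24; overlaps lncRNA:CR44034 and lncRNA:Irar) rose. The calls higher were 3 without uninjured replicate 1, 1 without 7 dpa replicate 2 and 2 without any other library, and Pvr was called each time, while msn was lost without uninjured replicate 3 or 7 dpa replicate 2. Of the chaperones, Hsp83 rose from 765 ± 45.4 to 2207 ± 85.7 CPM (1.53 ± 0.11; overlaps CG14966), Hsc70-4 by 0.70 ± 0.09 and Hsp60A by 1.05 ± 0.20, while DnaJ-1 (-1.42 ± 0.33) and stv (-0.92 ± 0.23) fell.

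Other lists held 1 to 4 calls each, from which nothing is read about the list beside the 7.36% and 4.49% of all genes. Of 31 TOR and insulin genes 3 rose, InR, gig (1.06 ± 0.35; overlaps obst-J and CG7335) and PEK (0.96 ± 0.33), and crc fell (-1.15 ± 0.28; overlaps CG46314). Of 13 clock genes per rose (1.01 ± 0.28; overlaps dyw) and Pdp1 (-1.01 ± 0.19) and to fell. Of 19 autophagy genes Atg4a (1.11 ± 0.32; overlaps CG4629) and Atg2 (0.83 ± 0.26) rose, and of 30 proteasome subunits Rpn1 (1.46 ± 0.44). Of 59 respiratory chain genes UQCR-Q (-1.68 ± 0.36; overlaps CG46525) and SdhB (-0.89 ± 0.30; overlaps CG15237) fell, and of 19 vacuolar ATPase subunits Vha26 (-0.60 ± 0.19). Of these, crc, Pdp1, to and UQCR-Q kept their call without each of the 6 libraries in turn. gig kept it only without 7 dpa replicate 3, InR only without uninjured replicate 3, Rpn1 only without 7 dpa replicate 2 and SdhB only without uninjured replicate 2. PEK lost it without any of them, per lost it without uninjured replicate 1 or 2 or 7 dpa replicate 3, Vha26 without uninjured replicate 2 or 3 or 7 dpa replicate 2, Atg4a without uninjured replicate 3 or 7 dpa replicate 2, and Atg2 without replicate 1 or 2 of either group.

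Of 15 eye pigment genes rb, an AP-3 adaptor subunit, fell (-1.31 ± 0.32; overlaps lncRNA:CR32773) and ry, xanthine dehydrogenase, rose (1.51 ± 0.37). Of 38 large cytoskeletal and adhesion genes sls, bt (-1.05 ± 0.13), dpy (-0.70 ± 0.10; overlaps HP6 and lncRNA:CR43716) and Nrg (-0.79 ± 0.24; overlaps PIP82) fell and Ten-m rose (0.93 ± 0.20; overlaps CG32450 and 4 non-coding RNA genes). Nrg lost its call without uninjured replicate 1 or 7 dpa replicate 1 or 3. Of 67 long non-coding RNAs 6 fell and 0 rose, beside 4.49% and 7.36% of all genes. Beside roX1 and roX2, lncRNA:Hsromega fell by 0.61 on the log2 scale (SE 0.10; overlaps mir-4951), and lncRNA:CR34335 (-1.13 ± 0.20; overlaps DIP-alpha), lncRNA:CR40469 (-1.03 ± 0.20) and lncRNA:mimi (-0.69 ± 0.18; overlaps mir-9381) fell as well.

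The same comparison in wild type pulldowns gave 283 genes higher and 166 lower, and in background pulldowns 118 and 68. Of the 531 genes that rose in dnmnatOE, 168 were also called higher in wild type and 83 in background. Of the 324 that fell, 54 and 17 were. The difference of the change itself was called for 220 genes (3.05%) against wild type and for 332 (4.6%) against background, and 99 and 167 of the rises and 68 and 119 of the falls were among them. Without 7 dpa replicate 3 the count against wild type was 138 and without uninjured replicate 1 it was 144.

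For most of the genes that differed from wild type, the gap between the genotypes was larger before injury than after it. Of the 128 with a more positive change in dnmnatOE, 96 had the larger gap in uninjured pulldowns, where the median log2 gap was -0.96, against 0.16 at 7 dpa. Of the 92 with a more negative change 65 did, with medians of 1.11 and -0.56. Against background the counts were 110 of 197 and 81 of 135. These fits share the dnmnatOE libraries with the main comparison.

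The gene pkm (overlaps nod) fell from 3171, 3137 and 3242 to 682, 694 and 689 CPM (-2.21 ± 0.11, adjusted p = 1.84e-22, edgeR). Its libraries were alike within each group, and the fall exceeded that in wild type by 1.61 and that in background by 2.13. CG43897 (-2.16 ± 0.13; overlaps Ilp5), the RNA-binding protein Syp (-2.06 ± 0.14; overlaps CG31195 and Takl1) and scyl (-2.21 ± 0.18), an inhibitor of TOR signalling, differed from wild type the same way. RIC-3 (-1.89 ± 0.17), a chaperone of acetylcholine receptors, and CHKov1 (-2.38 ± 0.23) differed from background.

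The dnmnatOE input changed far more widely, with 2766 genes higher (26.5%) and 2527 lower (24.2%) of 10437 tested. Of the 487 risen pulldown genes tested there, 397 were also higher in the input and 1 was lower. Of 320 fallen genes 204 were lower and 17 higher. The median input change of the pulldown genes was 2.16 for rises and -0.91 for falls.

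The change differed between pulldown and input for 2241 of 9816 genes (22.8%), among them 279 of the rises and 162 of the falls. In 72 of the 279 the pulldown rose more than the input, as in eEF1alpha1 (by 1.28), RpL35 (1.07), RpS28b (1.33; overlaps CG15317), RpL27 (1.13; overlaps Idh3g) and RpL29 (1.81; overlaps CG9752). In most it rose less, as in Col4a1, which was at 106 CPM in the uninjured and 3740 CPM in the 7 dpa input and rose by 3.85 less on the log2 scale in the pulldown. Ppn (by 3.77), a matrix protein, Tep2 (3.13; overlaps CG43235), Idgf4 (3.03), CG31705 (3.25) and CG18135 (2.65; overlaps CG3808) likewise rose less in the pulldown. Idgf4 lost its pulldown call without 7 dpa replicate 1, and CG18135 without uninjured replicate 2 or 7 dpa replicate 1 or 2.

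A few genes went in opposite directions. The laccase gene stw fell in the pulldown from 325, 309 and 337 to 112, 124 and 132 CPM (-1.40 ± 0.19, adjusted p = 1.53e-07, edgeR), while its input rose by 3.90, from 7.07 ± 1.03 to 105 ± 4.05 CPM (SD, n = 3). CHKov1 fell by 2.38 on the log2 scale in the pulldown and rose by 1.58 in the input. The pulldown groups did not overlap for either gene, as for every called gene, and both input changes passed the test.

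**Figure D5:**
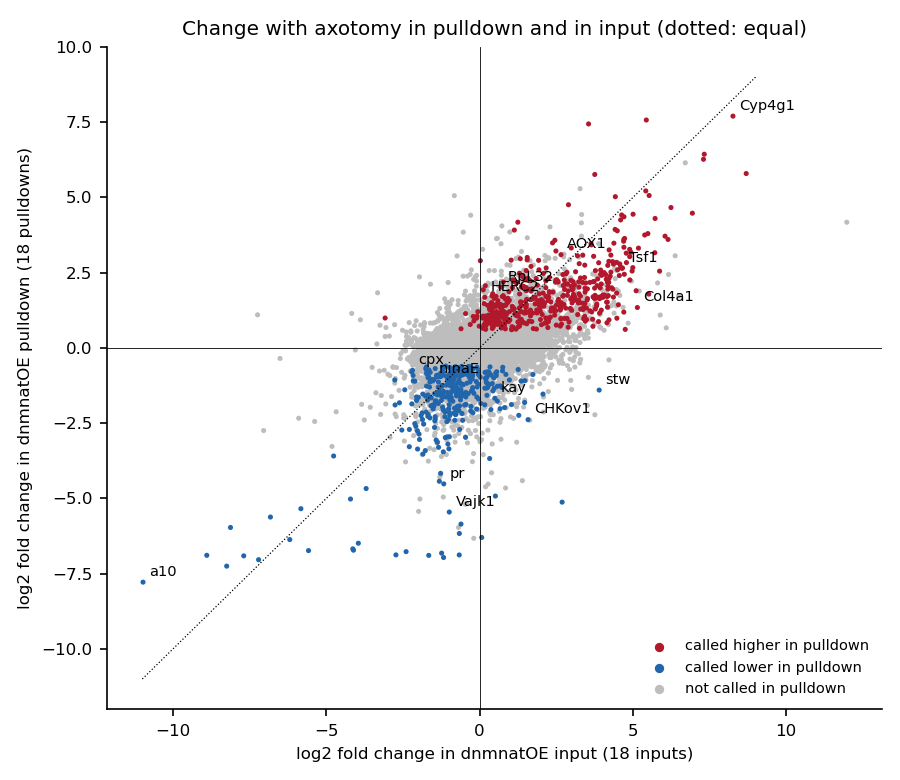
Log2 fold change, 7 dpa over uninjured, in dnmnatOE pulldowns (vertical axis) against that in dnmnatOE inputs (horizontal axis), 1 point a gene tested in both, red and blue for genes called higher and lower in the pulldown, with a dotted line of equal change. Most red points lie right of 0 and below the line, as Tsf1 (2.66 against 4.66) and Col4a1 do; stw and kay lie at the lower right.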

How the data were processed

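RNA of dnmnatOE heads was measured by TRAP-seq as paired reads. Per the labels and the study's methods, the authors trimmed reads with Trimmomatic, aligned them with HISAT2 to the Drosophila melanogaster genome of FlyBase release 6.43, and deposited raw counts per gene for each library from HTSeq-count. Tool versions, the counting mode and the use of strand are not given in the sources used here. Ambiguous reads and reads outside genes, listed in the count files, stayed out of library sizes and tests. Of 17611 genes, 17559 had a symbol and position in the Ensembl 115 annotation (Release 6 assembly).

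The deposited counts of the 18 pulldowns were fitted in edgeR 4.0.16 (R 4.3.3, limma 3.58.1) with TMM factors, filterByExpr, 1 coefficient a group and a robust quasi-likelihood fit. Standard errors are the log2 fold change over the square root of F. Inputs were fitted apart, and the difference of pulldown and input changes in the 12 dnmnatOE libraries together. P-values were adjusted by Benjamini-Hochberg over all genes tested. The fit was tested on simulated data. Library shares were compared with an exact permutation test.

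Alternatives were DESeq2 1.42.0, other size factors and filters, fewer libraries, no short or mitochondrial RNA, a replicate term and leaving out each library. Leaving out other genotypes' pulldowns or inputs was chosen after seeing the data, as were the lists of cuticle, serpin, growth factor, neprilysin, pteridine, digestive, purine and endoplasmic reticulum genes. The members and all other lists were chosen with earlier results of these data known.

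Genes were named by rule. These were the 12 largest changes each way among called genes with a mean of at least 50 counts and groups that did not overlap, up to 6 called members a list and direction by p, the 12 genes with a named RNA interference line and 7 others listed with them, up to 8 called genes each way by p in each difference of changes, and Nmnat, Orco and RpL10Ab. Genes of the lists added later were named after their values were seen. No sequences are shown.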

Additional observations from a re-analysis of the deposited data

Results flagged for a closer look

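The change after injury differed between dnmnatOE and wild type pulldowns for 220 genes and between dnmnatOE and background pulldowns for 332, tested as a difference of changes in 1 edgeR quasi-likelihood fit with Benjamini-Hochberg adjustment. These fits share the dnmnatOE libraries.

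Among RNAs that rose in dnmnatOE, the change lay above that in wild type by 1.49 on the log2 scale for snoRNA:Psi28S-3342, 0.98 for eEF1alpha1, 1.91 for AOX1 and 2.48 for Gbp2. Against background it lay above by 2.12 for snoRNA:Psi28S-3342, 1.22 for Yp3, 1.89 for Tsf1 and 2.24 for AOX1. Among those that fell, the difference from wild type was -2.24 for snRNA:7SKa, -1.61 for pkm, -1.82 for CG43897 and -0.88 for ninaE. The difference from background was -2.81 for snRNA:7SKa, -2.54 for CG43897, -2.13 for pkm and -2.64 for kay. These genes were picked among those called in the main comparison, where the dnmnatOE groups of libraries never overlapped. That separation therefore says nothing about the differences from wild type or background. Causes were not tested.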

How the results depend on the processing

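Of 154 named genes that were called, 120 were called under every alternative, and 34 lost the call in at least 1, most often PEK (10 of 15 alternatives). The fit to the 6 dnmnatOE pulldowns alone called 857 genes higher and 676 lower, and it held 527 of the 531 and 318 of the 324. DESeq2 called 650 and 413, and for the differences of changes 389 genes against wild type and 501 against background. Upper-quartile factors moved the median over all genes to -0.04 and gave 494 and 355. Without 1 dnmnatOE pulldown the calls ranged from 401 to 433 higher and from 263 to 285 lower. These fits held 396 to 427 of the 531 rises and 253 to 271 of the 324 falls. Named genes were picked mostly by p or fold change, so their stability does not stand for that of all calls. Leaving out 1 library, those of other genotypes included, gave 138 (without 7 dpa replicate 3 of dnmnatOE) to 263 genes that differed from wild type, 263 to 310 from background and 1941 to 2302 from input. The sign turned for 2 genes without a call: CG6923 was at -0.03 without uninjured replicate 2, -0.0815 without 7 dpa replicate 1 and -0.0039 without 7 dpa replicate 2 (range -0.0815 to 0.18), and cac at -0.0762 without 7 dpa replicate 1 (range -0.0762 to 0.15). The cause was not tested.

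Replicate numbers did not pair libraries, since deviations of same-numbered libraries correlated at -0.01, 0.02 and -0.04. With the replicate block 526 genes were higher and 322 lower, and 209 and 323 differed from wild type and background, with PEK no longer called.

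Depth limits low genes. A floor of 3 counts is 1.34 to 3.54 CPM, so Orco, Nmnat and other olfactory genes were measured with wide errors.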

Other observations

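Gene groups outside the report's comparisons were described after their values had been seen, with the same edgeR test. Their counts stand beside 7.36% higher and 4.49% lower over all genes. Of 12 genes of purine synthesis and one-carbon metabolism 6 were higher and 0 lower (median log2 fold change 1.25), and their sum went from 1032-1065 to 3053-3087 CPM. Gart, an enzyme of purine synthesis, rose from 81.3, 139 and 79.7 to 496, 532 and 448 CPM (2.31 ± 0.23, adjusted p = 2.8e-11; overlaps Pcp and CG43322). Pfas, of the same pathway, rose by 2.18 ± 0.23 (overlaps CG31643 and mir-966), and Ahcy, which breaks down S-adenosylhomocysteine, by 2.51 ± 0.22. Of 12 endoplasmic reticulum folding genes 4 were higher and 0 lower, among them the chaperones Calr (1.66 ± 0.17; overlaps sisRNA:CR46357) and Gp93 (1.52 ± 0.21; overlaps CG4951).

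Of 8 pteridine genes 2 were higher and 3 lower, beside 7.36% and 4.49% of all genes. Pu, which starts pteridine synthesis, fell from 741, 696 and 743 to 71.1, 97.9 and 80.6 CPM (-3.13 ± 0.22, adjusted p = 1.42e-16; overlaps CG4286 and tRNA:Trp-CCA-2-5). Of 19 cuticle proteins 6 were lower and 0 higher (median -1.59), and their sum went from 1129-1232 to 246.1-293.1 CPM. All 3 digestive enzymes tested were higher. Of 12 neuropeptide genes 1 was lower, and 2 by DESeq2. Of 12 mitochondrially encoded genes, 6 Johnston's organ genes and 2 ionotropic receptor genes 0 were called by edgeR or DESeq2, with 2, 0 and 0 at an unadjusted p under 0.05. Of 3 Bomanin genes 0 were called by edgeR, with 1 at an unadjusted p under 0.05, and 1 by DESeq2. Of 9 rRNA genes and pseudogenes 1 was lower.

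Of 72 genes tested on chromosome 4, 1 was higher and 10 lower, 8 had a fold change above 0, and the median was -0.50, against -1.06 in the input. Over all genes tested 7.36% were higher and 4.49% lower. Of the 1399 protein-coding genes in the fifth with the shortest spans, 120 were higher and 41 lower (median 0.10). Of the 1400 with spans of 12720 bases or more, 39 were higher and 99 lower (median -0.20). Why was not tested.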
